A study of Mus musculus with 12 samples.

Results

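The genes described here were 9 components of interleukin-6 (IL-6) and interleukin-1 (IL-1) signalling, measured as messenger RNA in mouse liver: the receptor subunits Il6ra, Il6st and Il1r1, the receptor antagonist Il1rn, the transcription factors Stat3, Cebpb and Cebpd, and the inhibitors Socs3 and Nfkbia. They were taken by symbol from a count table of 24527 gene symbols, where all 9 were found. All 9 were among the 13204 genes that passed the filter on low counts. The livers came from offspring of CF1 mothers, an outbred stock, and B6SJL fathers, and every group shared this cross, the age of 39 weeks and the tissue. Conception was either natural or by in vitro fertilization (IVF, fertilization of the egg in a dish, here by a protocol of the Jackson Laboratory). Livers of both sexes were taken for either mode, so that there were 4 groups of 3 libraries: natural females, IVF females, natural males and IVF males. The study compared IVF with natural conception within each sex. The labels did not say which animals shared a litter, so that p-values measure the spread between these livers.

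IL-6 is the main inducer of the acute phase response in hepatocytes. It binds the receptor chain encoded by Il6ra, which recruits the shared signalling subunit encoded by Il6st, and the kinases on that subunit activate STAT3, a transcription factor that drives acute-phase genes together with its own inhibitor, Socs3. IL-1 acts through the receptor encoded by Il1r1, is held in check by the decoy ligand encoded by Il1rn, and releases the transcription factor NF-kB from the inhibitor encoded by Nfkbia, which is itself an NF-kB target. C/EBP-beta (Cebpb) and C/EBP-delta (Cebpd) are transcription factors induced by these cytokines, and by hormones such as glucocorticoids, that act with STAT3 and NF-kB on acute-phase genes.

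Promoter sequence is shown for 3 members because they hold a match to the motif of STAT3 or of NF-kB (Socs3 and Nfkbia), or none beside a sex difference described below (Cebpb). RefSeq promoters (GRCm38.p6) were matched for 8 of the 9 members, all but Cebpd, and the 250 bases before each start were searched on both strands for a STAT motif (TTCNNNGAA), a C/EBP motif (TTGCNNAA) and the NF-kB consensus. In the lines below the matches are in capitals and the other bases in lower case, each read 5′ to 3′ on the gene's strand. The Socs3 window is chr11:117969437-117969536 on the minus strand, from 170 to 71 bases before the RefSeq start at 117969366. The GENCODE gene extends further, to 117970047, so that this window lies inside the gene as annotated there. The Nfkbia window is chr12:55492648-55492747 on the minus strand, and the Cebpb window is chr2:167688795-167688914 on the plus strand. Both end 1 base before the RefSeq start.
Socs3: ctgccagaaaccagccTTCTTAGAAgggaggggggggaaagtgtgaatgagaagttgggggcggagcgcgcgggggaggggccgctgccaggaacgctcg
Nfkbia: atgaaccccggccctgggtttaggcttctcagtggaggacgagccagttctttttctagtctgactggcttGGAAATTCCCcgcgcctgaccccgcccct
Cebpb: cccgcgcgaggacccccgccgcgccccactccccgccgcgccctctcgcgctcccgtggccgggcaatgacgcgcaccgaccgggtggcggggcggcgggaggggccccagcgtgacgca

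Socs3 held 1 STAT match, which began 154 bases before the start, and Nfkbia held 1 NF-kB match, which began 29 bases before it. Of the 2 promoters of Il1r1, the upstream one held a C/EBP match and the other an NF-kB match, beginning 133 and 232 bases before their starts. No match to these letters was found for Cebpb, Il6ra, Il6st, Stat3 or Il1rn. No match overlapped another. Among all 32851 promoters of the table, 7.02% held the STAT motif, 3.9% the NF-kB consensus and 9.56% the C/EBP motif in a window of the same length. These matches describe letters and say nothing of binding in these livers.

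Library totals ranged from 6826534 to 27832271 counts. The smallest, IVF female replicate 1 and natural female replicate 2, also held fewer counts of GC-rich genes, with a median log2 deviation of -0.43 and -0.42 in the fifth of genes richest in GC. They are called the shallow libraries below. Of 8 hepatocyte markers all were detected in every library, with a sum of 68200 to 104000 CPM (the usual read count scaled to library depth, with library sizes adjusted by edgeR's TMM factors). No pair of libraries of one group agreed within sampling noise, the smallest chi-square per degree of freedom being 80.7.

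None of the 9 genes passed edgeR's test between IVF and natural conception in either sex, where 0% of all genes tested passed in females and 0.00757% in males. Between the sexes, Cebpb and Cebpd were higher in males when the natural and IVF groups were averaged, by 2.46-fold and 2.28-fold, in a contrast where 7.2% of all genes passed. Il1r1 was 1.87-fold higher in males without passing the threshold. The receptor subunit Il6st and its transducer Stat3 varied least among the 12 livers by the ratio of the highest to the lowest level, 1.47 and 1.86, and the antagonist Il1rn varied most, with 16.7.

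**Figure D1:**
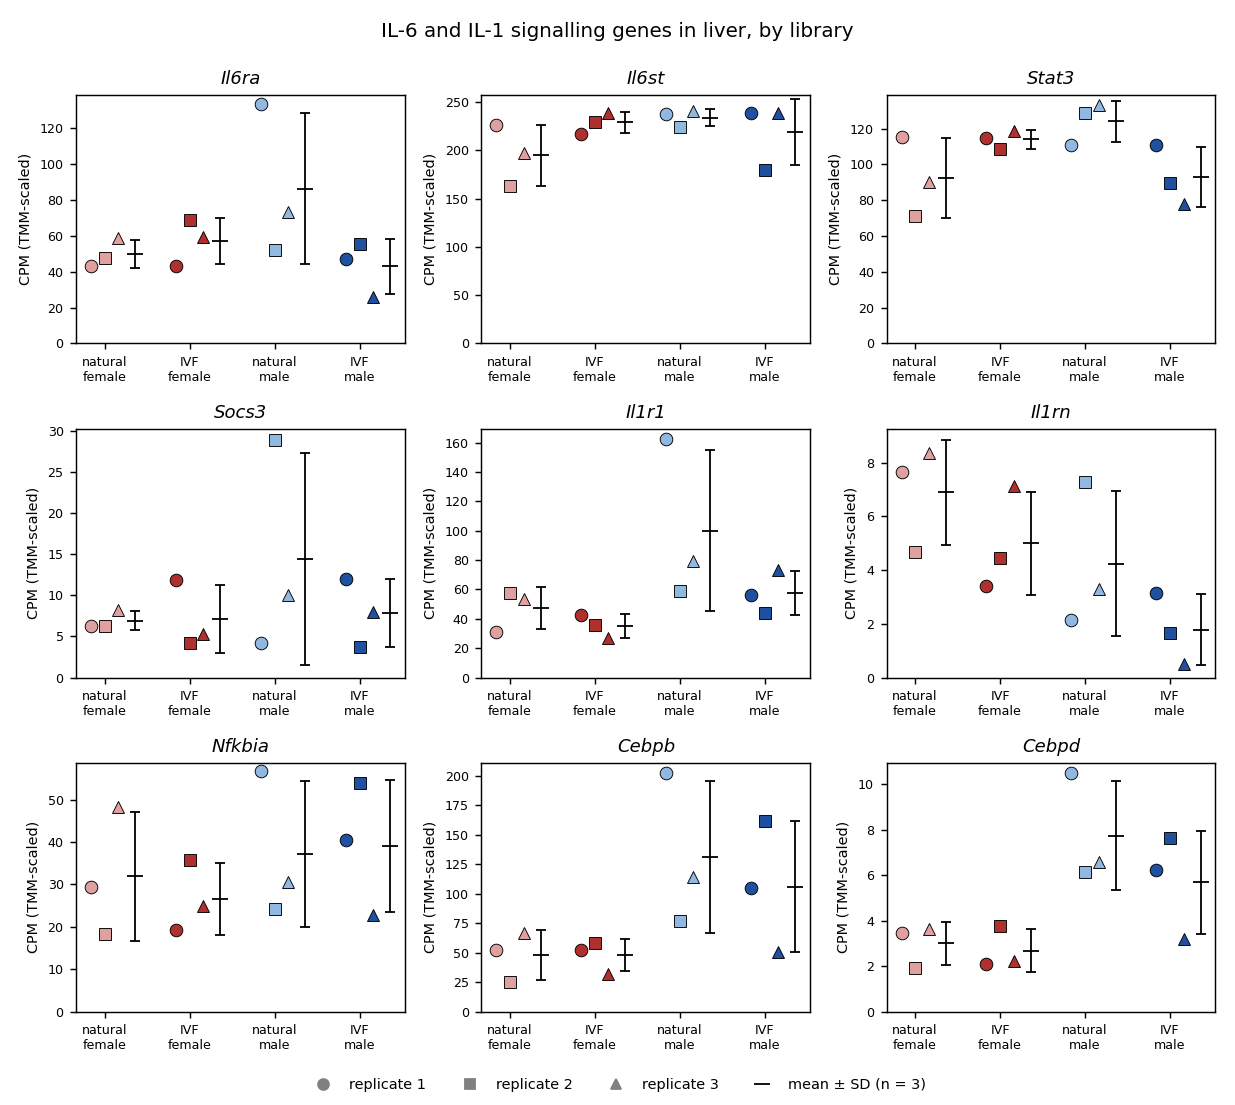
Level of each gene in TMM-scaled CPM (vertical axes start at 0) in the 12 livers, with 1 point per library and the mean ± SD of each group of 3 as bars. Natural male replicate 1 holds the highest point for Il6ra, Il1r1, Cebpb, Cebpd and Nfkbia, and natural male replicate 2 the highest for Socs3.

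Il6ra encodes the chain that binds IL-6. It stood at 43.1, 47.8 and 58.8 CPM in natural females (replicates 1, 2 and 3, an order that only names the livers) and at 43.2, 68.7 and 59.5 CPM in IVF females. It stood at 133, 52.3 and 73.3 CPM in natural males and at 47.3, 55.7 and 25.9 CPM in IVF males. Natural male replicate 1 was the highest and IVF male replicate 3 the lowest of the 12 livers, and all 4 groups overlapped. Group means were 86.3 ± 42.1 CPM (SD, n = 3) in natural males, 57.1 ± 12.9 in IVF females, 49.9 ± 8.07 in natural females and 43 ± 15.4 in IVF males. The log2 difference of IVF from natural males was -1.01 ± 0.36 (SE, 95% interval -1.79 to -0.23). Its unadjusted p was 0.0158 and its adjusted p 1 in edgeR's quasi-likelihood test with Benjamini-Hochberg adjustment over all 13204 genes. In females the same difference was 0.20 ± 0.35. The value in males without natural male replicate 1 was -0.55.

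Il6st, the signalling subunit that the IL-6 family of receptors shares, was the steadiest of the 9. Its levels were 226, 163 and 197 CPM in natural females, 217, 230 and 238 in IVF females, 238, 224 and 241 in natural males and 239, 180 and 239 in IVF males. Natural female replicate 2 and IVF male replicate 2 were the low livers, and the highest level was 1.47 times the lowest. No difference between groups exceeded 0.26 on the log2 scale within a sex or a mode of conception, and the intervals were narrow: IVF against natural males gave -0.10, with a 95% interval of -0.49 to 0.29.

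Stat3, the transcription factor activated by the IL-6 receptor, had the next smallest range, with a highest level 1.86 times the lowest. It stood at 116, 71.4 and 90.4 CPM in natural females, 115, 109 and 119 in IVF females, 111, 129 and 133 in natural males and 111, 89.8 and 78 in IVF males. The 3 natural males lay above the 3 IVF males, but the gap between the groups was the step from 110.9 to 111.1 CPM. The log2 difference of IVF from natural was -0.42 ± 0.20 in males and 0.30 ± 0.20 in females. The difference between these effects, males minus females, was -0.72 ± 0.29 with an unadjusted p of 0.0268 and an adjusted p of 1 (edgeR). A stretch of 72 bases of Stat3 exon also lies in exons of Stat5a on the other strand.

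Socs3, the feedback inhibitor that STAT3 induces and whose STAT match is shown above, varied 7.83-fold. It stood at 6.3, 6.23 and 8.23 CPM in natural females and at 11.9, 4.24 and 5.34 CPM in IVF females. It stood at 4.25, 28.9 and 10.1 CPM in natural males and at 11.9, 3.69 and 7.96 CPM in IVF males. Natural male replicate 2 stood apart, and the next highest livers were at 11.9 CPM. The mean in natural males was 14.4 ± 12.9 CPM (SD, n = 3), and the other group means lay between 6.92 and 7.86 CPM. The natural sex difference of 1.05 ± 0.63 (log2) had an adjusted p of 0.467, and was 0.04 without that library.

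Il1r1 encodes the receptor that transmits IL-1 signals. It stood at 31.3, 57.8 and 53.5 CPM in natural females and at 42.9, 35.7 and 26.7 CPM in IVF females. It stood at 163, 58.9 and 79.1 CPM in natural males and at 55.9, 43.8 and 73.3 CPM in IVF males. The males lay above the females of the same mode of conception in both modes, without overlap, but the gaps were narrow: from 57.8 to 58.9 CPM in natural and from 42.9 to 43.8 CPM in IVF animals. The log2 difference of males from females was 1.08 ± 0.37 in natural animals (unadjusted p 0.0141, adjusted p 0.198, edgeR) and 0.72 ± 0.37 in IVF animals (adjusted p 0.41). The natural value without natural male replicate 1 was 0.54. The difference of IVF from natural males was -0.80 ± 0.37, with overlap, and its value without natural male replicate 1 was -0.26.

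Il1rn encodes the antagonist that occupies the IL-1 receptor without activating it. It was the member with the lowest level per kilobase of exon and the widest range, with 10 to 191 counts per library. It stood at 7.66, 4.67 and 8.34 CPM in natural females, 3.41, 4.45 and 7.14 in IVF females, 2.15, 7.29 and 3.28 in natural males and 3.16, 1.67 and 0.50 in IVF males. All 3 IVF males were below all 3 IVF females, while natural male replicate 2 lay among the natural females. The log2 difference of males from females was -1.54 ± 0.60 in IVF animals, with an unadjusted p of 0.0245 and an adjusted p of 0.242 (edgeR). In natural animals it was -0.72 ± 0.56. IVF differed from natural conception by -1.27 ± 0.59 in males (unadjusted p 0.0531, edgeR, not called) and by -0.45 ± 0.56 in females. The value in males ranged from -1.95 to -0.65 when 1 library was left out.

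The direction of Il1rn between the sexes was the opposite of that of Il1r1. Markers of Kupffer cells, the macrophages of the liver, were read beside it. All 8 were detected in every library, and their summed level was 308 to 447 CPM in IVF females, 144 to 230 in IVF males, 298 to 396 in natural females and 269 to 305 in natural males. In no group did the sums rank the 3 livers as Il1rn did. In IVF females they were 442, 447 and 308 CPM, where Il1rn stood at 3.41, 4.45 and 7.14 CPM. In each of the other groups the highest liver was the same for both. In IVF males against IVF females 8 of 8 markers were lower, and edgeR called 2, Clec4f and Vsig4, where it called 2.19% of all genes. DESeq2 called 6 and limma voom 3, beside 721 and 279 of all 13204 genes. In natural animals 6 of 8 were lower in males, and edgeR called 0, with 2 unadjusted p-values under 0.05, beside 14.9% of all genes. DESeq2 called 1 and limma voom 0 there, beside 678 and 232 of all 13204 genes. Only 1 of 8 was higher in IVF males than in natural males, with a median log2 difference of -0.66. There 5 had an unadjusted p under 0.05, beside 2.69% of all genes, and edgeR called 0. In females 7 of 8 were higher after IVF, with a median of 0.22 and 0 such p-values. The 8 neutrophil markers summed to 2.16 to 9.75 CPM, with up to 3 of them at 0. The part of these cells in the level of Il1rn was not tested, and in bulk tissue fewer cells of a type and less RNA per cell cannot be told apart.

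Nfkbia encodes the inhibitor that holds NF-kB in the cytoplasm. It stood at 29.3, 18.2 and 48.2 CPM in natural females and at 19.1, 35.7 and 24.9 CPM in IVF females. It stood at 56.7, 24.2 and 30.6 CPM in natural males and at 40.6, 53.8 and 22.8 CPM in IVF males. High and low livers occurred in every group, and the groups overlapped throughout. Its differences lay between -0.26 and 0.55 (log2) in the IVF and sex comparisons within a group, and the smallest unadjusted p was 0.228 (edgeR).

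Cebpb, the C/EBP factor that is induced in the acute phase and in fasting, was the most abundant member per kilobase of exon. It stood at 52.4, 24.8 and 67 CPM in natural females and at 52.7, 58.1 and 32.3 CPM in IVF females. It stood at 202, 76.8 and 114 CPM in natural males and at 105, 162 and 50.4 CPM in IVF males. All 3 natural males were above all females, whereas IVF male replicate 3 fell among the IVF females. The log2 difference of males from females was 1.44 ± 0.49 in natural animals (unadjusted p 0.012, adjusted p 0.186, edgeR) and 1.15 ± 0.48 in IVF animals (unadjusted p 0.0359, adjusted p 0.288). The IVF value without IVF male replicate 2 was 0.70.

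Cebpd, a close relative of Cebpb that is normally low in resting liver, followed it at a lower level per length. It stood at 3.45, 1.92 and 3.65 CPM in natural females and at 2.08, 3.78 and 2.22 CPM in IVF females. It stood at 10.5, 6.14 and 6.6 CPM in natural males and at 6.25, 7.63 and 3.2 CPM in IVF males. As for Cebpb, the sexes did not overlap in natural animals, and in IVF animals IVF male replicate 3 fell within the female range. The log2 difference of males from females was 1.34 ± 0.39 in natural animals (unadjusted p 0.00485, adjusted p 0.123, edgeR) and 1.05 ± 0.39 in IVF animals (unadjusted p 0.0201, adjusted p 0.226).

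Both sex differences pointed the same way in the 2 modes of conception, and a contrast that averaged them was added after the data were seen. In it Cebpb was higher in males by 1.30 ± 0.34 (log2, 95% interval 0.55 to 2.05, adjusted p 0.0434, edgeR) and Cebpd by 1.19 ± 0.27 (0.59 to 1.79, adjusted p 0.0248). Il1r1 reached 0.90 ± 0.26 with an adjusted p of 0.0628, and Il1rn -1.13 ± 0.41 with 0.121. The other 5 members lay between 0.06 and 0.62.

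Both calls stood close to the threshold. Cebpb kept its call without natural female replicate 3, natural male replicate 2 or IVF male replicate 3 and lost it without any of the other 9 libraries, with values of 1.07 to 1.47 and adjusted p-values of 0.03 to 0.0965. Cebpd lost its call without IVF female replicate 1 or 3, IVF male replicate 1 or 2 or natural male replicate 1, with values of 1.05 to 1.37 and adjusted p-values of 0.0144 to 0.0581. Without both shallow libraries neither passed, at 1.15 for Cebpb (adjusted p 0.0812) and 0.996 for Cebpd (0.0606), and neither passed with library size alone as the scaling (0.0705 and 0.0529). Cebpb, the member richest in GC at 67.2%, also missed the threshold with a GC offset per library (0.98, adjusted p 0.073), with a term for the shallow libraries (0.0791) and with limma voom (0.0527). Il1r1 passed with DESeq2 (0.0194), the GC offset (0.0273) and the term for the shallow libraries (0.0396). Males were higher for all 3 genes under each of these alternatives.

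Markers of other cell types differed between the sexes in the same contrast. EdgeR called 3 of 8 Kupffer cell and 3 of 8 stellate cell markers lower in males, beside 7.2% of all genes called. It also called 2 of 4 T and NK cell and 2 of 6 B and plasma cell markers lower. These 2 lists were low, with sums of 0.59 to 5.51 and 3.79 to 27.8 CPM. Of 2 tested genes listed for adipocytes 1, Car3, was higher in males. The listed adipocyte genes Adipoq, Plin1 and Cfd failed the filter, with at most 2, 2 and 14 counts in any library. Of 8 hepatocyte and 8 sinusoidal endothelial markers 0 were called by edgeR. They had 2 and 3 unadjusted p-values under 0.05, beside 23.6% of all genes. DESeq2 called 1 of each list, beside 1693 of all 13204 genes. The part of these cells in the levels of Cebpb and Cebpd was not tested. Exons on the other strand overlap Cebpb over 312 bases (Tmem189) and Cebpd over 562 bases (Spidr), and reads there cannot be told apart where strand was not used in counting.

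**Figure D2:**
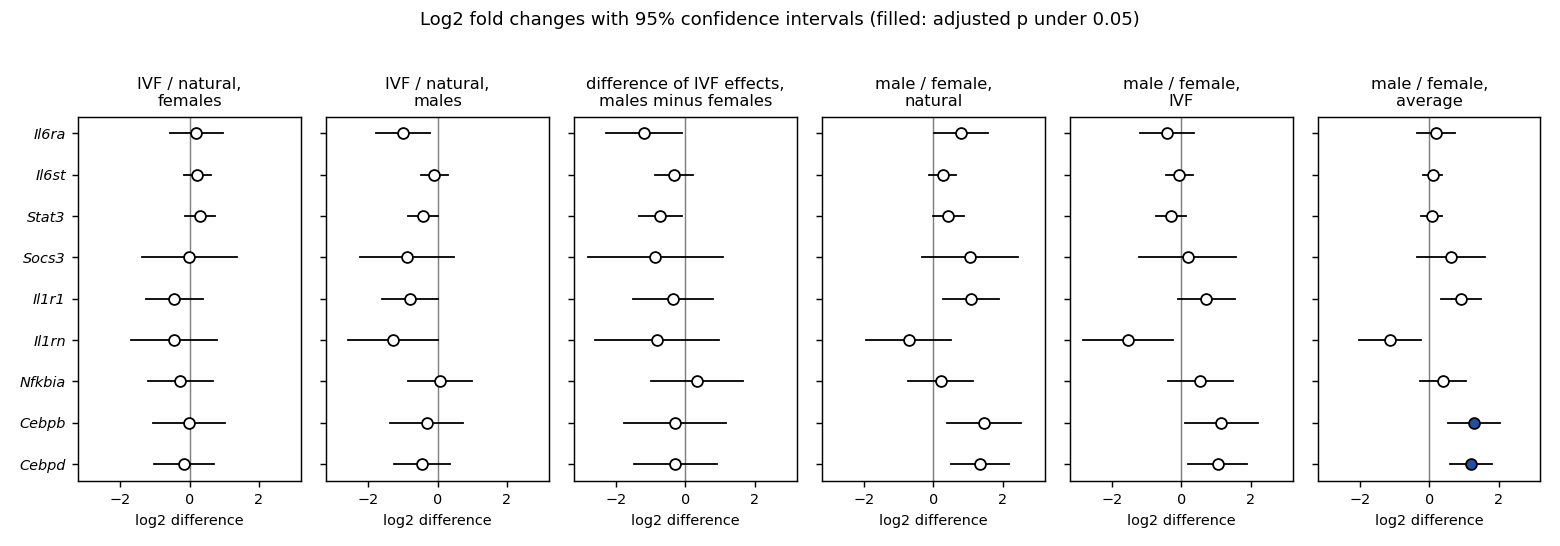
Log2 difference (horizontal axes) of each gene in the 6 comparisons, with 95% confidence intervals as lines. Filled points passed an adjusted p of 0.05 over all genes, which held only for Cebpb at 1.30 and Cebpd at 1.19 in the average of the sex differences.

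Across comparisons, the counts of members were read against those of all 13204 genes. IVF against natural in females called 0 of 9 members, where 0% of all genes were called. At an unadjusted p under 0.05 there were 0 members and 488 genes, and DESeq2 and limma voom called 0 members. The groups did not overlap for 0 of 9 members and for 7.42% of all genes. The members' median log2 difference was -0.02, with values from -0.28 to 0.19 when 1 library was left out, and that of all genes was -0.01.

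In males IVF called 0 of 9 members by edgeR, where 0.00757% of all genes, a single gene, were called. DESeq2 and limma voom also called 0, and Il6ra alone had an unadjusted p under 0.05, beside 355 of all genes. Stat3 alone did not overlap between the groups, beside 8.91% of all genes. Of the 9 members 8 were lower in IVF males, every one but Nfkbia, with a median log2 difference of -0.45. That median was -0.26 without natural male replicate 1 and between -0.31 and -0.64 without any other library. Over all genes 48.4% were lower, and the median was 0.01. For the difference between the IVF effects 0 of 9 members and 0% of all genes were called, with Il6ra (-1.20 ± 0.50) and Stat3 at an unadjusted p under 0.05, and DESeq2 and limma voom called 0 members.

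Between the sexes in natural animals 0 of 9 members were called by edgeR, where 1.77% of all genes were called. DESeq2 called 1, Cebpd, at an adjusted p of 0.0262, and limma voom called 0. Unadjusted p-values were under 0.05 for Il6ra, Il1r1, Cebpb and Cebpd, or 4 of 9, and for 14.9% of all genes. The sexes did not overlap for 3 members, Il1r1, Cebpb and Cebpd, and for 20% of all genes. The median was 0.79 with 8 members higher in males, against -0.02 over all genes. The members' median was 0.44 without natural male replicate 2 and 0.50 without natural male replicate 1.

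In IVF animals 0 of 9 members were called, where 2.19% of all genes were called, and DESeq2 and limma voom called 0 members too. Unadjusted p-values were under 0.05 for Il1rn, Cebpb and Cebpd, or 3 of 9, and for 14.9% of all genes. Il1r1 and Il1rn did not overlap, beside 21.8% of all genes. The median was 0.18 with 5 members higher in males and 4 lower, against 0.01 over all genes. It ranged from -0.13 to 0.33 when 1 library was left out. In the averaged contrast 2 of 9 members were called, where 7.2% of all genes were called. The contrasts share libraries, so that their values for a gene are not independent of each other.

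**Figure D3:**
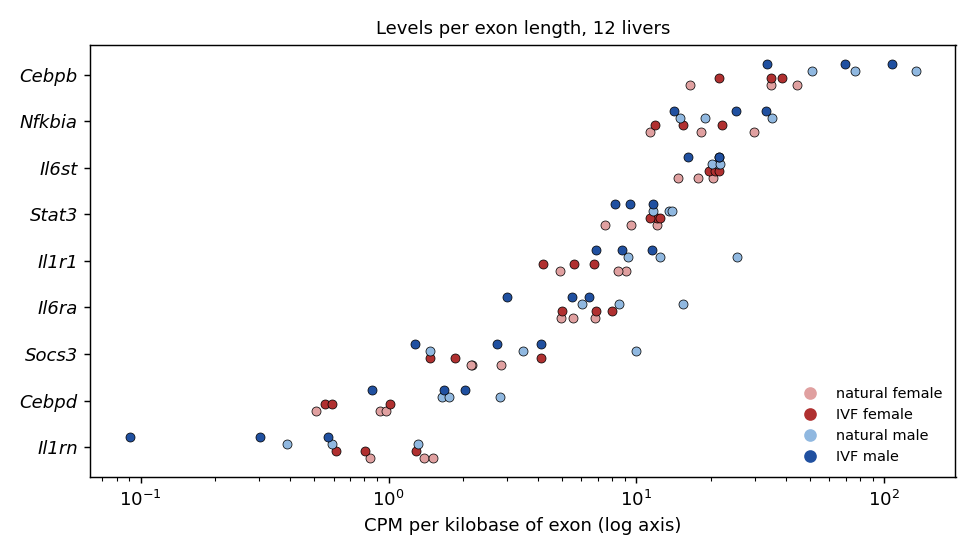
Level of each gene in CPM per kilobase of exon (logarithmic horizontal axis), with 1 point per liver coloured by group. Cebpb has the highest mean at 55.3 and Il1rn the lowest at 0.809, and the points of most neighbouring genes overlap.

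Set side by side per length, mean levels over the 12 livers were 55.3 CPM per kilobase of exon for Cebpb, 20.9 for Nfkbia, 19.8 for Il6st and 11.1 for Stat3. Il1r1 followed with 9.45, Il6ra with 6.84, Socs3 with 3.14, Cebpd with 1.28 and Il1rn with 0.809. In this order Il6st and Stat3 were the only neighbours whose ranges did not overlap, at 14.7 to 21.7 against 7.5 to 14 CPM per kilobase. The length used was that of all annotated exons joined, which can exceed the longest transcript. It was 9527 against 6042 bases for Stat3, 11099 against 8678 for Il6st and 5535 against 2554 for Il1rn. The order and the gaps are given for this length only. The signalling subunit Il6st had a higher mean level per length than the ligand-binding chain Il6ra, and their ranges met (3 to 15.4 for Il6ra).

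Counts of IL-6 itself and of several of its relatives were near the floor in this tissue. Il6 had 0 or 1 count per library and was at 0 in 8 of 12, and Il11, Lif, Osm and Il27 also failed the filter, with at most 4 counts in any library. Of 9 listed ligands of the IL-6 family 4 passed it and 0 were called in any comparison by edgeR, DESeq2 or limma voom, with 1 unadjusted p under 0.05, for Ebi3 between the natural sexes. Among 6 genes of IL-1 family ligands and their processing, all of which passed and which summed to 14.8 to 46.3 CPM, the alarmin Il33 was lower in males. It stood between 2.29 and 7.57 CPM in the 6 females and between 1.10 and 1.44 CPM in the 6 males. Its averaged sex difference was -1.45 ± 0.30 (adjusted p 0.0138, edgeR), and Il33 kept this call whichever of the 12 libraries was removed. All 6 genes were lower in IVF males than in IVF females, with a median of -1.15. Each had an unadjusted p under 0.05 there, beside 14.9% of all genes, and edgeR called 0. Between the natural sexes 1 of 6 was higher in males, and 1 had such a p-value. In the averaged contrast 5 had one, beside 23.6% of all genes.

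The 5 other receptors of the IL-6 family that passed the filter gave 0 calls by the 3 tools and 0 unadjusted p-values under 0.05. The 3 of the IL-1 family gave 0 calls by the 3 tools, with 1 such p-value between the IVF sexes and 1 in the averaged contrast, and 1 call in the latter without natural female replicate 3. Of 18 JAK-STAT transducers, phosphatases and receptor sheddases, Stat5a, which carries growth hormone signals, was called in the averaged sex contrast, lower in males by a log2 difference of -0.60 ± 0.16 (adjusted p 0.0474, edgeR). It kept the call without either of the shallow libraries and lost it without any of the other 10. Of the 6 SOCS family genes besides Socs3 that passed the filter, Socs7 was higher in males by 0.80 ± 0.18 (adjusted p 0.024). It lost the call without natural male replicate 1 or 3 or IVF male replicate 2 or 3. Stat5a was called in the averaged contrast alone, so it is named after its values were seen.

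Downstream of the IL-1 receptor, 0 of 12 adaptor and kinase genes of the MyD88, IRAK and TAK1 step were called by edgeR in any comparison. In the averaged contrast 5 had an unadjusted p under 0.05, beside 23.6% of all genes. DESeq2 called 3, beside 1693 of all 13204 genes, and limma voom 0. EdgeR called 1 without natural female replicate 3. Of 8 NF-kB subunits and kinase components, Ikbkg, the regulatory subunit of the kinase that marks the Nfkbia product for breakdown, was higher in males. It stood at 44.2, 54.9 and 51.8 CPM in IVF females and at 97.7, 86.2 and 98.5 CPM in IVF males, without overlap. The log2 difference was 0.90 ± 0.21 (adjusted p 0.0474, edgeR), and it kept the call without natural female replicate 2 and lost it without any of the other 11 libraries. In natural animals it was 0.35 ± 0.21. The 9 other NF-kB inhibitors and feedback genes and the 5 other C/EBP family genes gave 0 calls by the 3 tools, with 1 unadjusted p under 0.05 in each list, in the averaged contrast.

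The acute-phase genes that these pathways control were read in the same livers. One of them, Il1rap, was also in the list of IL-1 receptors. Of 29 that passed the filter, 5 were called higher in natural males than in natural females, where 1.77% of all genes were called. They were the serum amyloids Saa1 and Saa3, the haemoglobin- and haem-binding proteins Hp and Hpx, and Lrg1. Hp stood at 2660, 2510 and 1930 CPM in natural females and at 4680, 11200 and 8590 CPM in natural males, a log2 difference of 1.78 ± 0.36 (adjusted p 0.0286, edgeR). The number called rested on single libraries. It was 0 without any one of the natural females or without natural male replicate 2 or 3, 1 without IVF female replicate 2 or IVF male replicate 2, 2 without IVF male replicate 3, 3 without IVF female replicate 3, and 7 without natural male replicate 1. In IVF males against natural males 28 of 29 were lower, with a median of -0.98 and 14 unadjusted p-values under 0.05. Of these genes 0 were called by edgeR and limma voom and 1 by DESeq2. Over all genes 48.4% were lower and 2.69% had an unadjusted p under 0.05. The median in males ranged from -1.43 to -0.67 when 1 library was left out. The summed levels of the 2 groups overlapped. Natural male replicate 1 was at 32100 CPM, within the range of 26600 to 40200 CPM in IVF males. In females 25 of 29 were higher after IVF, beside 47.8% of all genes. Their median was 0.26, with 1 unadjusted p under 0.05 and 0 calls by the 3 tools. That median was 0.003 without IVF female replicate 1, 0.095 without natural female replicate 3 and 0.42 without natural female replicate 2. The difference between these effects had a median of -1.13 and 0 calls by the 3 tools. Unadjusted p-values were under 0.05 for 14 of the 29, beside 3.87% of all genes.

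**Figure D4:**
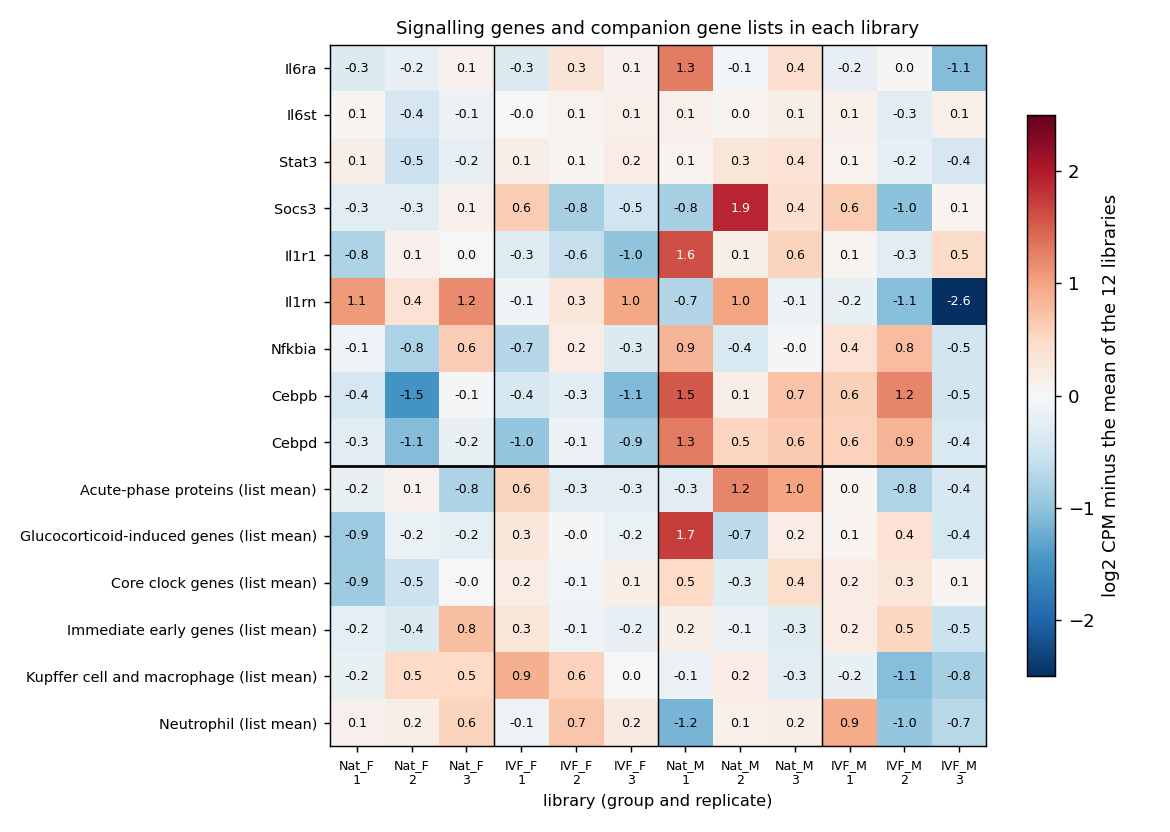
Log2 CPM (prior count 2) minus the mean of the 12 livers, for the 9 genes and, below the line, the mean over the genes of 6 companion lists, with 1 column per library. Natural male replicate 1 is high for Cebpb, Cebpd and the glucocorticoid-induced list (list mean 1.73), while natural male replicate 2 is high for Socs3 and the acute-phase list (list mean 1.23).

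Across the 3 natural males 7 of the 9 members followed 1 of 2 rankings. Acute-phase genes summed to 32100 CPM in replicate 1, 91800 in replicate 2 and 62200 in replicate 3, and Socs3 and Il1rn ranked the 3 livers in the same way. Cebpb, Cebpd, Il6ra, Il1r1 and Nfkbia ranked them the other way round, highest in replicate 1 and lowest in replicate 2. Il6st and Stat3 followed neither ranking and were highest in replicate 3. Genes induced by glucocorticoids, hormones of stress and fasting, followed the second ranking. The 7 genes summed to 10300 CPM in replicate 1, 1840 in replicate 2 and 3300 in replicate 3, and to 1500 to 5270 CPM in the other 9 livers. The 2 rankings did not hold in every group. In none of the other groups did Il1r1 rank the livers as Cebpb, Cebpd, Il6ra or Nfkbia did. Il1rn and Socs3 ranked them alike in natural females, but not in IVF females or IVF males.

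Among the glucocorticoid-induced genes, Tsc22d3, which encodes a leucine zipper protein, stood at 304, 71 and 134 CPM in natural males. Against natural females 6 of 7 glucocorticoid-induced genes were higher in natural males, beside 47.9% of all genes, with a median of 1.66. Unadjusted p-values were under 0.05 for 4 of the 7, beside 14.9% of all genes. EdgeR and limma voom called 0 and DESeq2 2, where DESeq2 called 678 of all 13204 genes. Of 12 clock genes 1 was called between these groups, where 1.77% of all genes were: Arntl was lower in natural males by a log2 difference of -2.57 ± 0.50 (adjusted p 0.0244, edgeR). Unadjusted p-values were under 0.05 for 7 of the 12, beside 14.9% of all genes. For IVF against natural females this held for 5 of the 12, beside 3.7% of all genes, and 0 were called. The hour of collection was not given in the sources used here. The part of these genes in the levels of the 9 members was not tested.

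Within groups, the members moved in sets. After each group's mean was taken off, Pearson's r over the 12 livers was 0.94 between Cebpd and Nfkbia, 0.90 between Cebpb and Cebpd, 0.89 between Cebpb and Nfkbia and 0.87 between Il6ra and Nfkbia. Socs3 ran against Il6ra with -0.74, and Il1r1 against Il1rn with -0.70. Stat3 ran with Il1rn (0.68) and Il6st (0.56). These values describe 12 livers that share, for each library, its depth and GC bias, and are given with no test.

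By the same measure, 9095 genes whose mean reached 5 CPM were searched for those most like each member. For Nfkbia they were Rgs16 (r 0.98), Sdc4 (0.97) and 4931406P16Rik (0.97), and for Cebpd they were Notch1 (0.96), Sdc4 and Bmf (0.95 each). Sdc4, which encodes a cell-surface proteoglycan, was thus on both lists. Cebpb ran most closely with Ip6k2, Hipk3 and 1700001C19Rik (0.93 each), and Il6ra with Slc25a34 (0.95), Nr0b2 (0.92) and Lipg (0.91). Rgs16, a regulator of G protein signalling, stood at 50.3, 1.15 and 3.36 CPM in natural males and at 16.2, 2.52 and 117 CPM in natural females, a wider range than that of Nfkbia in the same livers.

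For Socs3 the closest genes were Entpd4 (0.95), Il18bp (0.95) and Itih4 (0.93). Il18bp encodes a decoy for the IL-1 family cytokine IL-18, and Itih4 an acute-phase plasma protein. Itih4 stood at 3150, 7180 and 5130 CPM in natural males. It was picked for its likeness to Socs3 in these same livers, so that its ranking them as Socs3 does adds nothing. Stat3 ran with Tap1 (0.97), a peptide transporter of antigen presentation, Plin3 (0.96) and Eml2 (0.94). Il6st ran with Fbxl14 (0.95), Stx5a and Dhx30 (0.93 each), Il1r1 with Tead1 (0.95), Guf1 and Pgm2l1 (0.93 each), and Il1rn, with the weakest likeness of the 9, with Prkd3, Tsc22d4 and Sipa1l2 (0.87 each).

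Positions in GENCODE M21 (GRCm38) place Il6ra at chr3:89864059-89913196, Il6st at chr13:112464070-112510086 and Stat3 at chr11:100885098-100939540. Socs3 lies at chr11:117966079-117970047, Il1r1 at chr1:40225080-40317257, Il1rn at chr2:24336853-24351494 and Nfkbia at chr12:55489410-55492647. Cebpb lies at chr2:167688915-167690418 and Cebpd at chr16:15887286-15891031. Il6ra, Stat3, Socs3 and Nfkbia are on the minus strand and the others on the plus strand.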

How the data were processed

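The authors deposited 1 table of raw read counts by gene symbol for all 12 livers. Per the submitters' processing notes, the tools included Trimmomatic 0.32, STAR 2.3.0e and featureCounts 1.5.0, with the build mm10. Which annotation was counted, whether strand was used and how multi-mapping reads were handled is not given in the sources used here. Libraries were made from poly-A selected RNA, per the labels' protocols. The 9 members and the companion lists were chosen with earlier results of these data known. Counts of all 12 libraries were fitted in 1 model with edgeR 4.0.16 (R 4.3.3): filterByExpr by group, TMM factors, a mean for each group, and the quasi-likelihood F test with Benjamini-Hochberg adjustment over 13204 genes. A gene was called at an adjusted p under 0.05. Standard errors are the log2 difference divided by the root of F. Besides the members, a listed gene could be named where it was called, or had the smallest unadjusted p of its list, in any of the 5 contrasts other than the averaged one. Not every gene that met this rule is named, and the choice among them was made with the values known. Some listed genes that failed the filter are named for their low counts. The 3 genes most like each member are also named. Stat5a and Tsc22d3 did not meet the rule and were chosen after their values were seen. Alternatives were DESeq2 1.42.0, limma 3.58.1 voom, other scalings and filters, a term for the shallow libraries and leaving out each library. The GC offset (loess, span 0.5), the joint removal of the shallow libraries and the averaged sex contrast were added after the data were seen. The code was tested on simulated data.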

Additional observations from a re-analysis of the deposited data

How the results depend on the processing

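The 9 members were recomputed under 23 alternatives, 12 of which left out 1 library. Of 1170 recomputed member values 1092 kept their direction and side of the threshold, 52 reversed, 21 lost a call and 5 gained one. Only Cebpb and Cebpd in the averaged contrast were called to begin with, so that all 21 losses fell on these 2 values. The other values had no call to lose, and the count of 1092 mostly describes them. No paired analysis was possible because the groups compared share fewer than 2 numbers: the titles carry animal codes that the labels do not explain, and 1 leading number recurs, in IVF female replicate 1 and IVF male replicate 2. Library size alone as the scaling put the median log2 difference of all genes at -0.34 in the natural sex contrast, where the 118 higher and 116 lower calls became 88 and 422. It was -0.10 in the IVF sex contrast, where the calls went from 120 higher and 169 lower to 92 and 221, and -0.22 in the averaged one, from 472 and 479 to 252 and 1373. Over all genes the 234, 289 and 951 sex calls were 678, 721 and 1693 with DESeq2, 458, 438 and 1264 with a term for the shallow libraries and 442, 495 and 1626 at an adjusted p under 0.1. They ranged over the left-out libraries from 111 to 263, 137 to 348 and 519 to 810, and the first was 139 with only the libraries compared. The 1 gene called for IVF in males was 5 with DESeq2 and 0 with limma voom. With library size alone Il6st reversed to 0.0373 for IVF in males and to -0.0529 between the natural sexes, Nfkbia to -0.13 between the natural sexes, and Il6ra to -0.0215, Il6st to -0.11 and Stat3 to -0.14 in the averaged sex contrast, where it called 0 members. Limma voom called 1 there, and DESeq2 called 1 between the natural sexes. Without both shallow libraries the averaged contrast called 0, Cebpb reversed to 0.0678 for the difference of the IVF effects, Nfkbia to -0.0799 between the natural sexes, and Stat3 to -0.0329 in the averaged contrast. A term for the shallow libraries gave Stat3 -0.0129 there, and for IVF in females it gave Cebpb 0.0656. The same Cebpb value was 0.0018 with DESeq2, 0.0267 with limma voom and 0.29 with the GC offset. Socs3 for IVF in females, near 0, became 0.0085 with DESeq2's size factors, 0.0005 with a mean of at least 1 CPM, 0.0408 with DESeq2, 0.20 with the GC offset and 0.0163 with only the libraries compared, and its IVF sex difference became -0.11 with the GC offset.

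Leaving out each library in turn gave 0 to 3 called members in the averaged contrast: 0 without IVF female replicate 1 or 3, IVF male replicate 1 or 2 or natural male replicate 1, and 3 without natural male replicate 2, which added Il1r1 (adjusted p 0.046). For IVF in females the values ranged from -0.33 to 0.32 for Cebpb, -0.50 to 0.0193 for Cebpd, -0.53 to 0.19 for Nfkbia and -0.52 to 0.28 for Socs3. For IVF in males they ranged from -0.76 to 0.14 for Cebpb, -0.16 to 0.0267 for Il6st, -0.23 to 0.51 for Nfkbia and -1.32 to 0.12 for Socs3. For the difference of the IVF effects the ranges were -0.74 to 0.16 for Cebpb, -0.57 to 0.0547 for Cebpd, -0.63 to 0.18 for Il1r1, -0.12 to 0.77 for Nfkbia and -1.32 to 0.12 for Socs3. Between the sexes they were -0.22 to 0.64 for Nfkbia in natural animals, -0.13 to 0.0645 for Il6st and -0.25 to 0.68 for Socs3 in IVF animals, and -0.0385 to 0.32 for Il6ra and -0.0113 to 0.16 for Stat3 on average. The cause of these changes was not tested. The lowest counts behind a value were 10 for Il1rn and 14 for Cebpd in 1 library.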
